A study of Mus musculus with 6 samples.

Results

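The 10 genes described here encode proteins of peripheral myelin and of the node of Ranvier: Gldn, Pmp22, Mal, Prx, Drp2, Egr2, Pou3f1, Fa2h, Ugt8a and Gjc3. They were chosen by name, for their known role in Schwann cells, and with earlier results of these data known. Of the 10 genes, 9 had a transcript cluster of their own on the array, which is a set of probes summarised to 1 value, out of 19938 genes with such a cluster. Prx had none in the annotation used here and was not analysed here. The samples were enterospheres, free-floating aggregates of neural progenitors and other cells from the gut muscle layers of neonatal C57BL/6 mice, with no transgene in either group. The differentiation group (3 samples) was grown for 9 days in proliferation medium and then for 2 days in differentiation medium, which held N2 supplement and ascorbic acid-2-phosphate but no EGF or FGF. The proliferation group (3 samples) stayed in medium with EGF at 10 ng/mL and FGF at 20 ng/mL for all 11 days, and each sample came from 3 mice, as the labels have it. The methods differ from the labels here and give a higher EGF concentration and fewer pups for each culture. They also differ on B27, which the labels list in the proliferation medium and the methods add a single time ahead of seeding. Loss of the growth factors and addition of ascorbic acid-2-phosphate coincided and cannot be told apart. Any difference in B27 between the media would coincide with them too. One GeneChip Mouse Gene 1.0 ST array per sample gave log2 values after RMA (robust multichip average) normalization, so a difference of 1 is a doubling of signal.

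Schwann cells wrap peripheral axons in compact myelin, a membrane stack held together by tetraspan and adhesion proteins and rich in galactolipids. At the gaps between myelin segments, the nodes of Ranvier, secreted and membrane proteins of the Schwann cell gather the sodium channels of the axon. Enteric glia derive from the same neural crest lineage as Schwann cells and share many of their early genes, but they ensheath axon bundles in the gut wall without forming myelin. Several of the genes, among them Mal, Fa2h and Ugt8a, also serve the oligodendrocytes of the brain, so they do not mark one myelinating cell type.

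Promoter sequence is shown for genes that changed, with the motifs of the factors discussed below marked, and for the 2 genes of the group that held an octamer. The sequences come from RefSeq (GRCm38.p6), run 5′ to 3′ on the strand of the gene, and end at the base before the start of transcription, except the windows of Prx and Egr2, which are cut around the octamer. Capitals mark a motif. The table held start sites for 7 of the 10 genes, and Drp2, Pou3f1 and Fa2h were not among them. Gldn (chr9:54286236-54286485, plus strand) held an AP-1 motif whose first base lay at position -72. Mal (chr2:127656696-127656945, minus strand) and the most upstream of the 4 Pmp22 start sites (chr11:63128732-63128981, plus strand) held none of the motifs searched. The windows lie at chr7:27499075-27499114 for Prx and at chr10:67537726-67537765 for Egr2, both on the plus strand.
Gldn: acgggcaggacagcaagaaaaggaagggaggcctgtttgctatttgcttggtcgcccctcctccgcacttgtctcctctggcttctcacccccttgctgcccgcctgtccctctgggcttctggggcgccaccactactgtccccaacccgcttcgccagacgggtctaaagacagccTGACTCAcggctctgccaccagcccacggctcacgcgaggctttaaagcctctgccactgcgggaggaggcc
Mal: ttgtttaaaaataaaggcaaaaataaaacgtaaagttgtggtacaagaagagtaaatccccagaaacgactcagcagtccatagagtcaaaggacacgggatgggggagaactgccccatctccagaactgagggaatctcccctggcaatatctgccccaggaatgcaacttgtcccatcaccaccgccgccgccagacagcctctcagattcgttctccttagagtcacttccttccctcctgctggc
Pmp22: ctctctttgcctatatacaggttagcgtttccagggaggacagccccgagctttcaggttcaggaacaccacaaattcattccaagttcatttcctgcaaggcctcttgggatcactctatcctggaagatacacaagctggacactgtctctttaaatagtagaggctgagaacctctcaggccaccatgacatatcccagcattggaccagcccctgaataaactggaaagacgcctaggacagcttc
Prx: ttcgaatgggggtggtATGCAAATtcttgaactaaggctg
Egr2: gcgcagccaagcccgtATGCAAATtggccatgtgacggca

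The motifs were searched on both strands of the 250 bases upstream of 32851 start sites, 14 of them belonging to the genes described here, and no matches overlapped another motif in those 14. AP-1, the site of Jun and Fos proteins, was spelled TGANTCA and was found at 6.75% of all start sites, and among these genes only in Gldn. The POU octamer, the site of Pou3f1 and related factors, was spelled ATGCAAAT and was found at 1.6% of all start sites. It stood upstream of Prx, with its first base at position -233, and in the overlapping windows upstream of 3 of the 5 Egr2 start sites. The SOX motif (ACAAAG or ACAATG), found at 25.2% of all start sites, and the EGR motif (GCGTGGGCG or GCGGGGGCG), found at 3.06%, had no match at the 14 start sites. A match is a string of letters and not a shown binding site, and no match says only that these letters were missing from this window.

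In differentiating enterospheres 3 of the 9 measured genes were upregulated (Gldn, Mal and Fa2h), 1 was downregulated (Pmp22) and 5 did not pass the test. The test was limma's moderated comparison fitted over all 35556 transcript clusters, with p-values adjusted by Benjamini-Hochberg over all of them and a gene called below 0.05. For comparison, 2.94% of all genes were called higher and 2.97% lower, 5.91% in all, and 1.95% and 2.15% of all transcript clusters. The genes were not chosen blind to these data, so these shares serve as a description and not as a test. The methods' t-test, which is uncorrected and asks for a 1.5-fold change, called 3 of the 9 genes higher (Gldn, Mal and Fa2h) and 1 lower (Pou3f1 in place of Pmp22), where it called 2.5% and 3.16% of all genes. The values of the groups did not overlap for 5 of the 9 genes, 3 with differentiation higher and 2 with differentiation lower, where 14.6% and 12.9% of all genes separated in these directions. The median log2 fold change (differentiation minus proliferation) was 0.03 over the 9 genes and 0.02 over all genes, so the members that changed stood apart from a group median close to that of the array. With 3 arrays a group, an exact two-sided permutation test of a single gene cannot give a p below 0.1, and all adjusted p-values here come from limma. The plot of the 9 genes by array shows the values behind these counts.

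**Figure D1:**
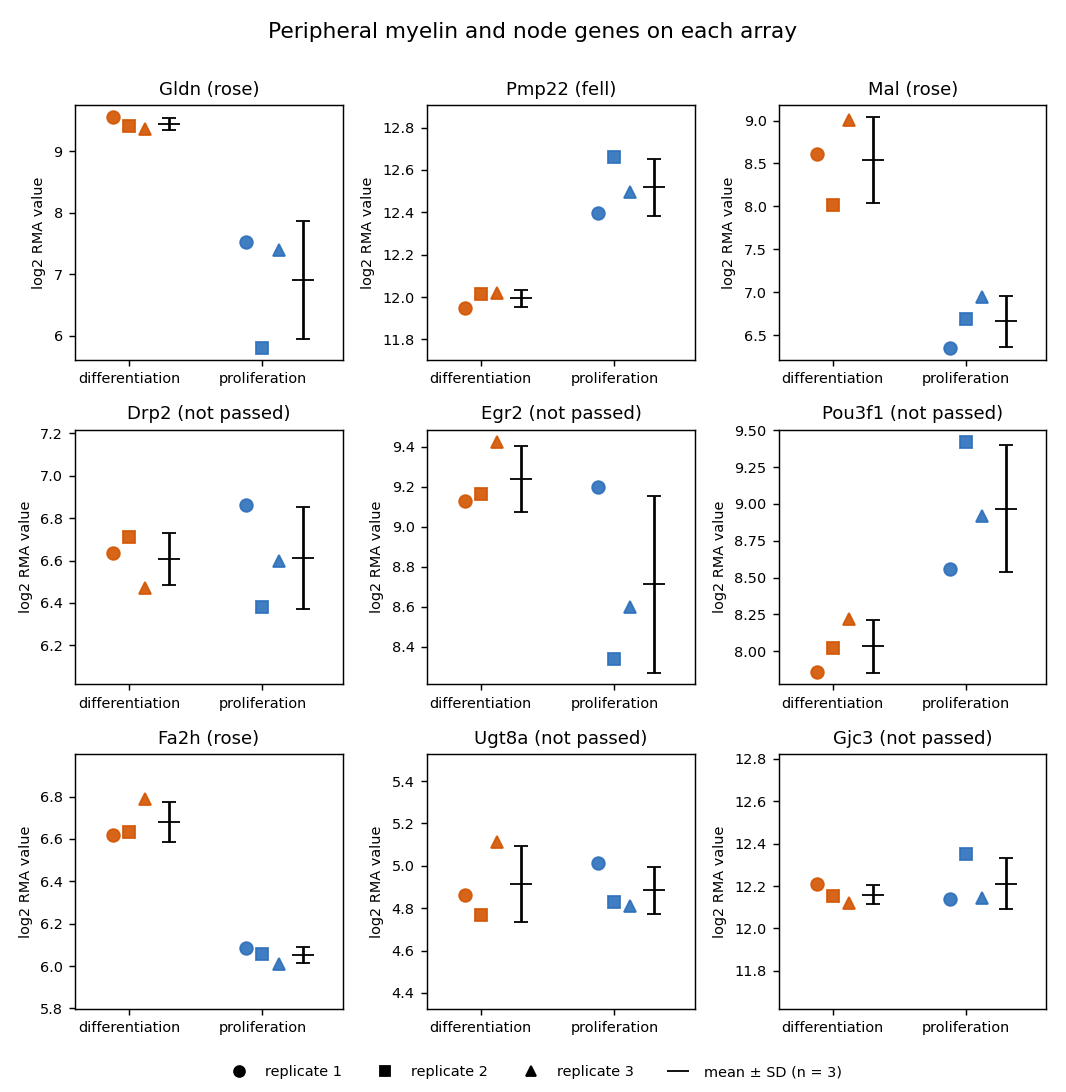
Log2 RMA value of each measured peripheral myelin or node gene (y axes, each panel with its own range) on the 3 differentiation and 3 proliferation arrays, with the mean and SD of each group (n = 3); symbols give the replicate number. The 3 differentiation arrays lie above all proliferation arrays for Gldn, Mal and Fa2h and below them for Pmp22 and Pou3f1, and the groups overlap in the other panels.

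Gldn encodes gliomedin, a collagen-like protein of the Schwann cell microvilli that binds the axonal adhesion molecules Nrcam and neurofascin and so gathers sodium channels at the forming node. It had the largest fold change of the 9 genes. Its log2 level was 9.56, 9.42 and 9.36 in the differentiation samples, against 7.52, 5.80 and 7.39 in the proliferation samples. The mean was 9.44 ± 0.10 in differentiation and 6.91 ± 0.96 in proliferation (SD, n = 3 each). All differentiation samples were above all proliferation samples, the differentiation samples lay close together, and proliferation replicate 2 was far below the other 2. The log2 fold change was 2.54 (SE 0.43, 95% interval 1.51 to 3.56), a 5.81-fold higher signal, with an adjusted p of 0.0249. Without proliferation replicate 2 the log2 fold change was 1.99 (3.96-fold) and the adjusted p 0.00324. All 14 measured neuron markers were also lowest on that array among the proliferation samples, where 42.3% of all genes were. So were all 6 markers of the interstitial cells of Cajal and 8 of 10 fibroblast markers. The part of these cells in the low Gldn value was not tested. The call was lost when differentiation replicate 1, 2 or 3 was left out (adjusted p of 0.117, 0.0856 and 0.0715) and without proliferation replicate 3 (0.0647), while the log2 fold change stayed between 1.99 and 2.85 with any 1 array left out.

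Of Nrcam and Nfasc, which encode partners of gliomedin at the node, only Nrcam passed the test. Nrcam, which gliomedin binds, was upregulated, with log2 levels of 10.46, 10.44 and 10.34 in differentiation, against 9.32, 8.78 and 9.18 in proliferation. Its log2 fold change was 1.32 (SE 0.14, adjusted p = 0.00647) and it was called with each of the 6 arrays left out in turn. Nfasc, which encodes the neurofascins of the node and paranode, had a log2 fold change of 0.24 (SE 0.16, adjusted p = 0.556). Cntnap1, the axonal paranodal protein Caspr, had one of -0.27 (SE 0.21, adjusted p = 0.622). Both Nrcam and Kcna1 are also made by neurons, and a bulk array does not say which cells carry the transcripts.

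Among 27 measured genes of the node, the paranode and adjoining contacts of axon and Schwann cell, 5 were upregulated and none downregulated. The 27 genes had a median log2 fold change of 0.15 against 0.02 over all genes. Kcna1 and Kcna2 encode potassium channels of the juxtaparanode, the zone beside the paranode, and had log2 fold changes of 2.1 (SE 0.30, adjusted p = 0.0141) and 0.42 (SE 0.08, adjusted p = 0.045). Cadm4 and Cadm3, which encode nectin-like adhesion proteins that link Schwann cell and axon, had log2 fold changes of 0.74 (SE 0.10, adjusted p = 0.0128) and 0.52 (SE 0.10, adjusted p = 0.04). Kcna1 lay at 9.25, 9.29 and 9.37 in differentiation, against 7.77, 6.49 and 7.35 in proliferation. As with Gldn and Nrcam, all differentiation values were higher and proliferation replicate 2 was the lowest array. These 4 calls were less steady than that of Nrcam. The Kcna2 call was lost whichever array was left out (adjusted p up to 0.209), and Cadm3 passed only without proliferation replicate 1 (up to 0.15 otherwise). Kcna1 lost its call without proliferation replicate 3 or any differentiation replicate (up to 0.0727), and Cadm4 without differentiation replicate 1 or 2 or proliferation replicate 3 (up to 0.0695).

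Pmp22 encodes a tetraspan protein of compact myelin whose gene dose is critical for human peripheral nerve myelin, and it is also made at lower levels by many dividing and resting cells outside nerve. Its log2 level was 11.95, 12.02 and 12.02 in differentiation, against 12.40, 12.66 and 12.49 in proliferation. All differentiation samples were below all proliferation samples, by at least 0.38, and both groups were tightly spaced. Its log2 fold change was -0.52 (SE 0.09, 95% interval -0.75 to -0.30), a 1.44-fold lower signal, with an adjusted p of 0.0302. The call held in 1 of the 6 fits that left out an array, that without proliferation replicate 1 (adjusted p = 0.0356), and was lost in the other 5, where the adjusted p was 0.152, 0.091 and 0.0761 without differentiation replicate 1, 2 and 3, and 0.062 and 0.116 without proliferation replicate 2 and 3. The array value does not separate the 4 start sites of Pmp22.

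Mal encodes a small tetraspan proteolipid of lipid rafts that takes part in sorting proteins to the myelin membrane. Its log2 level was 8.61, 8.01 and 9.00 in differentiation, against 6.35, 6.69 and 6.94 in proliferation, and all differentiation samples were higher, by at least 1.07. The mean was 8.54 ± 0.50 in differentiation and 6.66 ± 0.30 in proliferation (SD, n = 3 each). This gave a log2 fold change of 1.88 (SE 0.27, 95% interval 1.25 to 2.52), a 3.69-fold higher signal, with an adjusted p of 0.0139. Unlike for Gldn, the differentiation samples spread more than the proliferation samples. The call was lost in 1 of the 6 fits that left out an array, that without differentiation replicate 1 (adjusted p = 0.0766).

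Of the other 21 measured genes of myelin membrane and adhesion, 3 were upregulated and 1 was downregulated, with a median log2 fold change of 0.06. Mbp, the basic protein that fuses the inner membrane faces of myelin, had log2 levels of 7.53, 7.56 and 7.71 in differentiation, against 6.75, 6.77 and 6.82 in proliferation, with a log2 fold change of 0.82 (SE 0.08, adjusted p = 0.00571). All differentiation values were higher, and Mbp was called with each array left out in turn. Cnp, an enzyme of non-compact myelin, and Cd9, a tetraspanin, had log2 fold changes of 0.79 (SE 0.09, adjusted p = 0.00778) and 0.58 (SE 0.08, adjusted p = 0.0156), while Mpzl1, a cell-surface glycoprotein, had one of -0.51 (SE 0.08, adjusted p = 0.0199). Cnp lost its call without differentiation replicate 1 (adjusted p = 0.0579), and Cd9 and Mpzl1 were each called in 2 of the 6 fits that left out an array. Cd9 lost its call without proliferation replicate 3 or any differentiation replicate (adjusted p up to 0.0779), and Mpzl1 without differentiation replicate 1 or 2 or proliferation replicate 2 or 3 (up to 0.111).

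Pmp2, a fatty acid binding protein of peripheral myelin, and Mag, an adhesion protein of the innermost myelin layer, were not called, their log2 fold changes being -0.05 (SE 0.13, adjusted p = 0.907) and 0.06 (SE 0.12, adjusted p = 0.856). Their mean signals over the 6 arrays, 4.25 and 4.97, lay within the range of most olfactory receptor genes, taken here as a guide to signal without transcript. That guide was the 95th percentile of 1027 olfactory receptor genes, 5.47. The array values carry no detection call, so a signal below the guide does not show that a transcript was missing.

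Drp2 encodes a dystrophin-related protein that, together with the scaffold periaxin (Prx), ties the outer Schwann cell membrane to dystroglycan and the basal lamina. Its log2 level was 6.64, 6.71 and 6.47 in differentiation, against 6.86, 6.38 and 6.6 in proliferation. The groups overlapped, and the log2 fold change of -0.01 (SE 0.14, 95% interval -0.34 to 0.32, adjusted p = 0.99) changed sign with the array left out. Dag1, dystroglycan itself, had a log2 fold change of -0.04 (SE 0.07, adjusted p = 0.868).

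Other genes of the dystroglycan and laminin anchors did change: of 20 measured, 6 were upregulated and 1 was downregulated, with a median log2 fold change of 0.18. Itga7, a laminin-binding integrin subunit of muscle and Schwann cells, lay at 8.66, 8.60 and 8.87 in differentiation, against 6.97, 6.22 and 6.72 in proliferation. It was higher on all differentiation arrays, with a log2 fold change of 2.07 (SE 0.19, adjusted p = 0.00438), and was called with each array left out. Ahnak, which encodes a large scaffold protein, Lama5, a laminin chain, and Sspn, the dystrophin-complex protein sarcospan, had log2 fold changes of 0.92 (SE 0.14, adjusted p = 0.0159), 0.75 (SE 0.08, adjusted p = 0.00654) and 0.68 (SE 0.08, adjusted p = 0.00765). Lama4, another laminin chain, was the one that fell, with a log2 fold change of -0.62 (SE 0.12, adjusted p = 0.0415). The Sspn call held with each array left out, that of Lama5 was lost without differentiation replicate 1 (adjusted p = 0.0508), and Ahnak lost its call without differentiation replicate 1 or 2 or proliferation replicate 3 (up to 0.0909). Lama4 passed only without proliferation replicate 1 (adjusted p up to 0.14 otherwise). Many of these proteins also serve muscle: of 10 smooth muscle marker genes 4 rose (Tagln by 1.44, Actg2 by 1.22 on the log2 scale) and Smtn fell (-0.83), and their summed log2 level was 11.38 to 11.51 in differentiation and 11.21 to 11.37 in proliferation. The part of muscle cells in the Itga7 result was not tested.

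**Figure D2:**
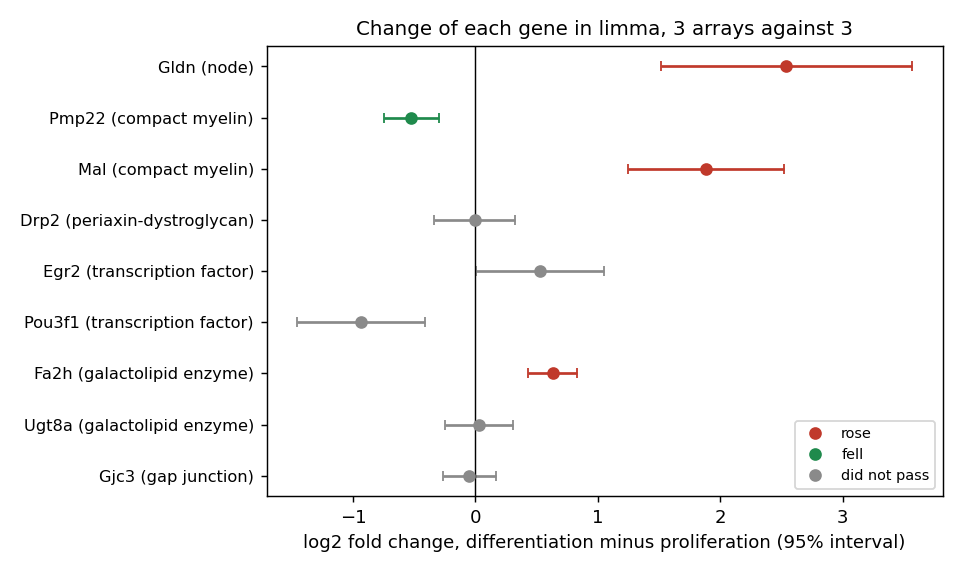
Log2 fold change (x axis, differentiation minus proliferation) of the 9 measured genes, with limma's 95% interval and each gene's role in brackets. The intervals of Gldn, Mal and Fa2h lie right of 0, as narrowly does that of Egr2, and those of Pmp22 and Pou3f1 left of it, with Egr2 and Pou3f1 short of the adjusted threshold, and the intervals of Drp2, Ugt8a and Gjc3 span 0.

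Pou3f1, also known as Oct6, and Egr2, also known as Krox20, are the transcription factors through which Schwann cells pass on their way to myelination: Pou3f1 is made transiently by promyelinating cells and helps to turn on Egr2, which drives the genes of myelin proteins and lipids. Neither passed the test. Pou3f1 had log2 levels of 7.86, 8.02 and 8.22 in differentiation, against 8.56, 9.42 and 8.92 in proliferation. The differentiation samples were all below the proliferation samples, by at least 0.34, yet the proliferation samples were widely spread. The log2 fold change was -0.93 (SE 0.22, 95% interval -1.45 to -0.41), a 1.91-fold lower signal, with an unadjusted p of 0.00392 and an adjusted p of 0.0738 in limma. It passed without proliferation replicate 1 (adjusted p = 0.0364).

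Egr2 had log2 levels of 9.13, 9.16 and 9.43 in differentiation, against 9.20, 8.34 and 8.60 in proliferation. The groups overlapped, because proliferation replicate 1 lay among the differentiation samples while the other proliferation samples lay below them. The mean was 9.24 ± 0.16 in differentiation and 8.71 ± 0.44 in proliferation (SD, n = 3 each). The log2 fold change was 0.52 (SE 0.22, 95% interval 0.00 to 1.05, adjusted p = 0.317). Without proliferation replicate 1 it was 0.77 with an adjusted p of 0.0474. The intervals of Pou3f1 and Egr2 thus lay on opposite sides of 0, but neither gene passed the threshold over all clusters.

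None of the 17 other measured genes of the transcriptional control of myelination passed the test, with log2 fold changes between -0.36 and 0.49 and a median of 0.11. Sox10, which works with both factors and marks the whole Schwann and enteric glial lineage, lay at 11.58, 11.71 and 11.68 in differentiation, against 11.33, 11.49 and 11.30 in proliferation. Its differentiation values were all higher, and the log2 fold change of 0.28 (SE 0.09) had an adjusted p of 0.179. Nab1 and Nab2, cofactors through which Egr2 acts, had log2 fold changes of -0.14 (SE 0.09, adjusted p = 0.529) and -0.36 (SE 0.19, adjusted p = 0.437).

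Among 10 genes listed here as repressors of myelination, 1 was upregulated and none downregulated. The 1 was Jun, an AP-1 protein that opposes Egr2 in Schwann cells and rises when they dedifferentiate after injury. Its log2 level was 11.95, 11.87 and 11.67 in differentiation, against 11.11, 11.02 and 11.20 in proliferation, with a log2 fold change of 0.72 (SE 0.10, adjusted p = 0.0147). All differentiation values were higher, and the call was lost without differentiation replicate 1 or 2 or proliferation replicate 3, with the adjusted p at most 0.0803. The list as a whole had a median log2 fold change of 0.23 and ran from -0.93 to 0.72, so its largest change was a fall. Limma's unadjusted p was under 0.05 for 8 of the 10 genes, but only Jun passed after adjustment. The share of all genes under that unadjusted threshold was not counted. The same count was 14 of 20 for the dystroglycan and laminin anchors and 2 of 15 for the connexins. The AP-1 letters in the Gldn sequence shown above were not tested for binding in these data.

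Of 27 measured genes of axonal and adhesion signals to the Schwann cell, 2 were upregulated and none downregulated, with a median log2 fold change of 0.09. Ndrg1, a cytoplasmic protein of Schwann cells whose loss causes a human demyelinating neuropathy, had a log2 fold change of 0.70 (SE 0.09, adjusted p = 0.0114). Lgi4, a protein secreted by Schwann cells that promotes myelination, had one of 0.53 (SE 0.09, adjusted p = 0.0282). The call of Ndrg1 was lost without differentiation replicate 1 or proliferation replicate 3 (adjusted p up to 0.0686), and that of Lgi4 in all fits that left out an array except the one without proliferation replicate 2 (up to 0.132).

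Fa2h and Ugt8a serve the making of the same lipids. Fa2h adds a hydroxyl group to fatty acids that become part of ceramide. Ugt8a attaches galactose to ceramide to make galactosylceramide, the main glycolipid of myelin. Only Fa2h passed the test. It had log2 levels of 6.62, 6.63 and 6.79 in differentiation, against 6.09, 6.06 and 6.01 in proliferation. Both groups were tightly spaced, with means of 6.68 ± 0.09 in differentiation and 6.05 ± 0.04 in proliferation (SD, n = 3 each), and did not overlap. For Fa2h the log2 fold change was 0.63 (SE 0.08, 95% interval 0.43 to 0.83), a 1.55-fold higher signal, with an adjusted p of 0.0113. The call was lost without differentiation replicate 1 (adjusted p = 0.0634) and without proliferation replicate 3 (0.0679).

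Ugt8a had log2 levels of 4.86, 4.77 and 5.11 in differentiation, against 5.01, 4.83 and 4.81 in proliferation. The groups overlapped, all 6 values lay below the olfactory receptor guide of 5.47, and Ugt8a was the only one of the 9 genes whose mean lay there. Its log2 fold change of 0.03 (SE 0.12, 95% interval -0.25 to 0.31, adjusted p = 0.934) turned negative when the arrays were rescaled by cyclic loess or median centring.

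Of 24 other measured genes of galactolipid and sphingolipid metabolism none was upregulated and 2 were downregulated, with a median log2 fold change of -0.03. Over all genes 2.94% were called higher and 2.97% lower, so few calls would be found among 24 genes in any case. All differentiation arrays were higher for 7 of the 24 genes and lower for 5, where 14.6% and 12.9% of all genes separated in these directions. Both that fell are enzymes of fatty acid synthesis: Elovl6, which lengthens fatty acids, had a log2 fold change of -0.56 (SE 0.11, adjusted p = 0.0388), and Fasn, the fatty acid synthase, one of -0.39 (SE 0.08, adjusted p = 0.0493). Neither was called once any 1 array was left out (adjusted p up to 0.151 and 0.194). Gal3st1, which sulfates galactosylceramide to sulfatide, had a log2 fold change of 0.44 (SE 0.12, adjusted p = 0.115), and Cers2, which makes ceramides with very long chains, had one of 0.14 (SE 0.07, adjusted p = 0.458).

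Gjc3 encodes a connexin of the innermost Schwann cell membrane facing the axon. Its log2 level was 12.21, 12.15 and 12.12 in differentiation, against 12.14, 12.35 and 12.15 in proliferation. The groups overlapped, with proliferation replicate 2 the highest array and the other 5 close together. The log2 fold change was -0.05 (SE 0.09, 95% interval -0.27 to 0.17, adjusted p = 0.85), and the interval left room for a small change in either direction. None of the 15 other measured connexin genes passed the test either, with a median log2 fold change of -0.01, and 10 of the 15 had mean signals below the guide. Gjb1, the connexin of the Schwann cell incisures, was among these 10, with a mean signal of 5.00 and a log2 fold change of 0.06 (SE 0.16, adjusted p = 0.898).

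Across all 8 lists of other myelin and node genes, 161 genes were measured, of which 17 were upregulated and 4 downregulated, 140 did not pass, and the median log2 fold change was 0.09. The upregulated genes stood mostly in the lists headed node and paranode (5) and dystroglycan and laminin anchors (6). Of the 5, only Nrcam was described above as a protein of the node. Kcna1 and Kcna2 belong to the juxtaparanode, and Cadm3 and Cadm4 link Schwann cell and axon. The plot of fold changes by list sets the 8 lists beside the 9 genes.

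**Figure D3:**
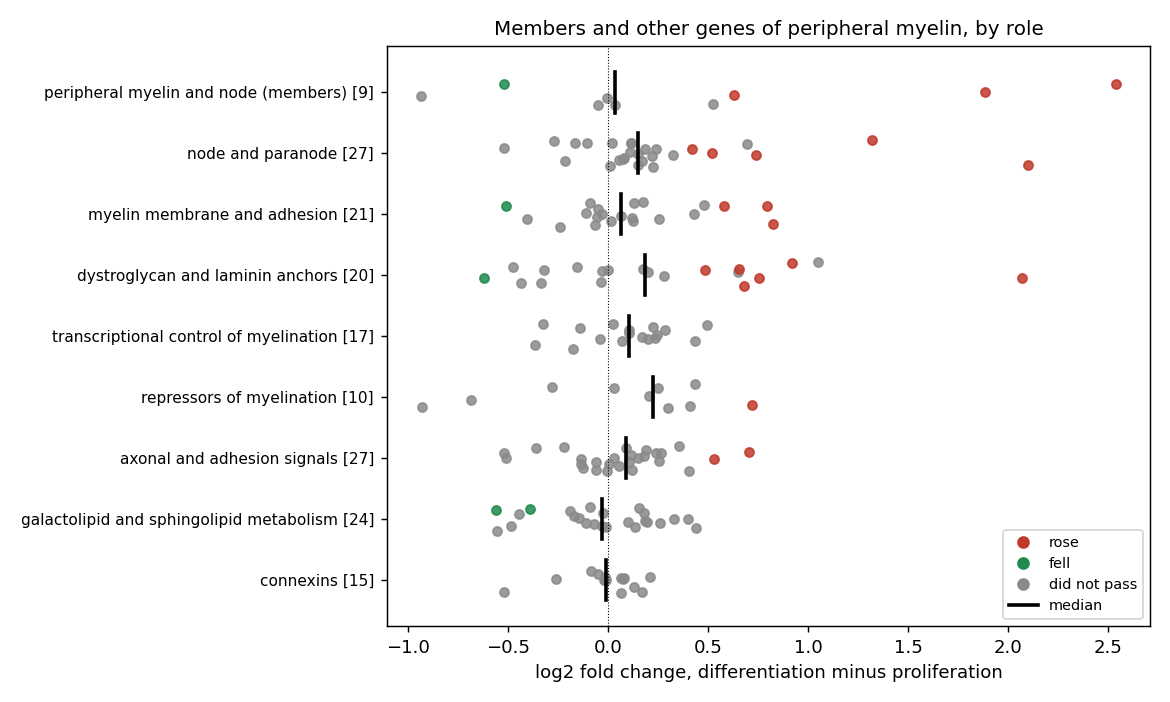
Log2 fold change (x axis, differentiation minus proliferation) of each measured gene, by list, with the number measured in brackets and a bar at the list's median; color gives limma's call at an adjusted p under 0.05. The median is 0.03 for the 9 peripheral myelin and node genes, and the highest single point is Gldn at 2.54.

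Some markers of other cell types also changed, in both directions. Of 16 oligodendrocyte markers 5 rose and none fell, with a summed log2 level of 13.27 to 13.34 in differentiation and 12.39 to 12.50 in proliferation. The markers that rose were Opalin (10.02, 9.78 and 10.26 in differentiation, against 4.69, 4.90 and 4.58 in proliferation, log2 fold change 5.29, adjusted p = 0.000161), Enpp6 (2.64), Aspa (2.31), Cldn11 (1.91) and Olig1 (1.41). The oligodendrocyte markers Mobp, Ermn, Mag and Nkx2-2 had mean signals below the guide. Of 13 markers of enteric glia and Schwann cell precursors, all above the guide, 5 rose and 2 fell, with a summed log2 level of 15.09 to 15.15 in differentiation and 14.77 to 14.94 in proliferation. Entpd2 (1.32), Gfap (1.16), Ngfr (0.79), Gap43 (0.69) and L1cam (0.41) rose in log2 fold change and Fabp7 (-1.07) and S100b (-0.74) fell. Of 14 neuron markers 1 rose, Tubb3 (0.98), and their summed level overlapped, at 14.01, 14.09 and 13.89 in differentiation, against 14.07, 13.61 and 14.12 in proliferation. Proliferation replicate 2, the array on which Gldn, Nrcam and Kcna1 were lowest, was thus the lowest in the neuron sum. Among the proliferation arrays it was also the lowest in the smooth muscle, fibroblast, macrophage, mesothelial and Cajal cell sums. It was the highest in the endothelial sum and in that of enteric glia and Schwann cell precursors. For oligodendrocyte and epithelial markers it lay between. Of 6 markers of the interstitial cells of Cajal 2 fell, Ano1 (-1.43) and Prkcq (-1.15), with a summed log2 level of 12.36 to 12.48 in differentiation and 12.80 to 13.15 in proliferation. Of 10 fibroblast markers Dpt rose (1.2), and of 10 endothelial markers Egfl7 rose (1.65) and Plvap fell (-0.65). None of the 12 epithelial, 10 macrophage and 8 mesothelial markers was called. The part of these cell types in the changes of Gldn, Mal, Fa2h and Pmp22 was not tested. In RNA from whole enterospheres, fewer cells of a type and less RNA per cell cannot be told apart.

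The firmness of the calls differed among the genes, as the plot of adjusted p with each array left out shows. Mal kept its call in 5 of 6 such fits, Fa2h in 4, Gldn in 2 and Pmp22 in 1, and all 4 kept their direction in every one. Among these 6 fits, Pou3f1 and Egr2 were called only in the one without proliferation replicate 1. The fit without differentiation replicate 1 gave the fewest calls of the 6 over all clusters, 165 higher and 129 lower. With all arrays these counts were 693 and 766. Mal had a log2 fold change of 1.85 in that fit, against 1.88 with all arrays, so a lost call there is not particular to one gene.

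**Figure D4:**
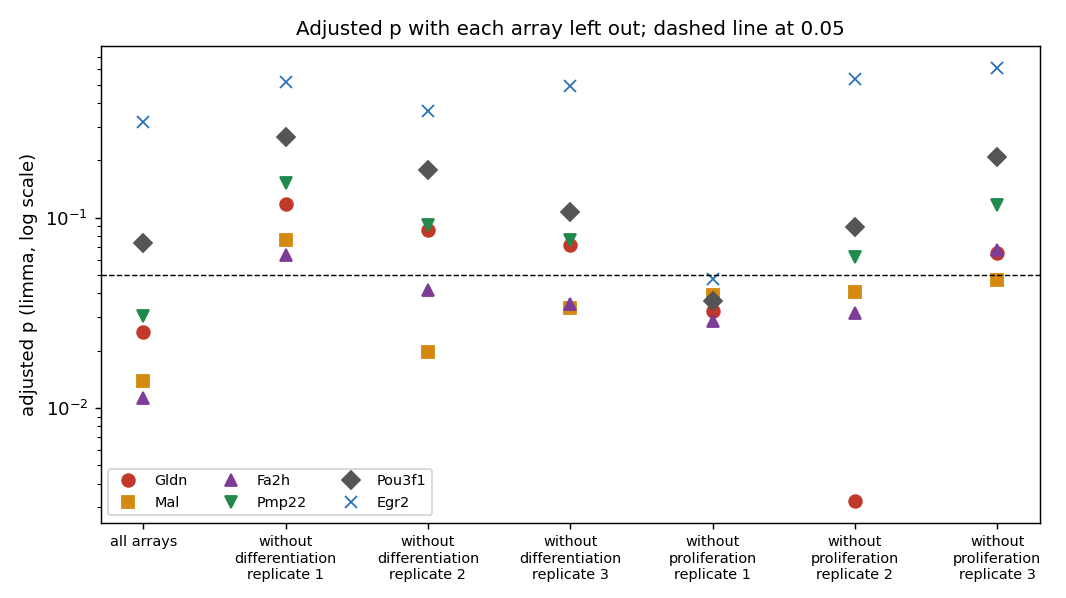
Adjusted p of 6 peripheral myelin and node genes in limma (y axis, log scale, dashed line at 0.05) with all arrays and with each array left out (x axis). Mal is above the line once (0.0766 without differentiation replicate 1), Pmp22 is below it once among the 6 such fits, and Gldn has its lowest value, 0.00324, without proliferation replicate 2.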

How the data were processed

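RNA of 6 enterosphere samples, 3 differentiation and 3 proliferation, was hybridised to 1 GeneChip Mouse Gene ST 1.0 array each. The deposited log2 values had been made by the authors by RMA in Partek Software 6.6 over all arrays; scanning used AGCC 3.0 and Expression Console 1.0 is also named in the submitters' processing notes. The build behind the clusters is not given in the sources used here. Probe-to-gene pairs came from GEO's platform annotation: 21789 clusters had 1 symbol, 1621 several and 12146 none. A gene with several clusters took the brightest, and no filter on low values was set. limma 3.58.1 in R 4.3.3 compared the groups over 35556 clusters, with the Benjamini-Hochberg adjustment and a threshold of 0.05; the code was tested on simulated data. The methods' t-test (uncorrected, with 1.5-fold) was run as an alternative. Promoters were read with Python 3.11.15.

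Every gene of the group is named, with, for each other list, up to 4 called genes of largest change, any called gene against its list, and genes chosen by role. The genes and lists were chosen with earlier results of these data known. The methods describe independent experiments, but the labels do not link replicate numbers between groups, so p-values measure the spread between these samples. Array values carry no counts, and precision rests on the number of arrays. Correlations between arrays were 0.988 to 0.995 within groups and 0.983 to 0.989 across them.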

Additional observations from a re-analysis of the deposited data

How the results depend on the processing

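Gldn, Mal, Fa2h, Pmp22, Pou3f1 and Egr2 kept their direction under all alternatives run. Near-zero log2 fold changes turned sign: Drp2 to 0.0355 with array weights, Gjc3 to 0.033 with array weights, and Ugt8a to -0.0251 with cyclic loess and -0.0034 with median centring. With 1 array left out, Drp2 ran from -0.12 to 0.12 (above 0 without differentiation replicate 3 or proliferation replicate 1), Gjc3 from -0.0892 to 0.0184 (above 0 without proliferation replicate 2) and Ugt8a from -0.068 to 0.11 (below 0 without differentiation replicate 3 or proliferation replicate 3). Of the 9 genes, 3 were called higher and 1 lower as reported. Leaving out 1 array gave 0 to 4 higher (0 without differentiation replicate 1, 1 without proliferation replicate 3) and 0 to 2 lower. The lower count was 2 with array weights, with dim clusters left out and with the clusters of each gene averaged, Pou3f1 joining Pmp22. Array weights also called Egr2 (adjusted p = 0.0123), which made the higher count 4. The methods' t-test after Benjamini-Hochberg called 0 higher and 0 lower. For the 161 other myelin genes (17 higher, 4 lower), leaving out 1 array gave 4 to 16 higher and 0 to 5 lower, array weights gave 63 and 30, and the t-test after Benjamini-Hochberg 5 and 1. Their lower count was 9 with dim clusters left out, 9 with limma-trend and robust estimation, 10 with clusters averaged and 2 with the uncorrected t-test at 1.5-fold. Over all clusters (693 higher, 766 lower), leaving out 1 array gave 165 to 587 higher and 129 to 710 lower, array weights 7315 and 5406, and the t-test after Benjamini-Hochberg 175 and 78. The cause of these shifts was not tested, beyond the fewer samples of the fits that left out an array.

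The methods move picked enterospheres into either medium, so both groups may share cultures, but the labels do not say which samples did. Deviations of same-numbered arrays correlated at -0.003, 0.09 and -0.07, and those of differently numbered arrays at -0.17 to 0.16. With 3 arrays a group, these values cannot settle whether the samples were paired. With the replicate number as a block in limma, 285 clusters were higher and 379 lower, and 10 and 0 of the other myelin genes. Pmp22 (adjusted p = 0.0859) and Fa2h (0.0645) were then not called, leaving 2 of the 9 genes higher (Gldn and Mal) and 0 lower. The number of arrays and values below the olfactory receptor guide limit what can be said of Ugt8a, Pmp2, Mag and Gjb1.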

Other observations

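Proliferation replicate 2 was the lowest of the 3 proliferation arrays for 42.3% of all genes and the highest for 29.7%. It was the lowest for all 14 neuron markers (by a median of 0.52 on the log2 scale against the mean of replicates 1 and 3). It was also the lowest for all 6 markers of the interstitial cells of Cajal and 8 of 10 fibroblast markers. In the node and paranode list it was the lowest for 18 of 27 genes. It was the highest for 8 of 13 markers of enteric glia and Schwann cell precursors. Of the 9 peripheral myelin and node genes, Gldn, Egr2 and Drp2 were lowest there, Pmp22, Pou3f1 and Gjc3 were highest, and Mal, Fa2h and Ugt8a lay between. Relative to the mean of replicates 1 and 3, the log2 level on that array differed by -1.66 for Gldn, -0.56 for Egr2 and 0.68 for Pou3f1. Proliferation replicate 2 was singled out after its values were seen, and the same counts were not made for the other arrays. The array weights were 0.40, 0.48 and 3.62 for proliferation replicates 1, 2 and 3. For differentiation replicates 1, 2 and 3 they were 7.45, 0.49 and 0.40, so replicate 2 of proliferation did not have the lowest weight.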
